A study of Homo sapiens with 4 samples.

Results

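The aminoacyl-tRNA synthetases are described here across 4 RNA-seq libraries of LM2 cells, 2 with hnRNPM knocked down and 2 controls. The members were taken by name: 19 enzymes counted as cytosolic and 16 as mitochondrial, 35 genes among the 36525 Ensembl genes of the deposited table. Of the 35, 34 were in the table and 33 (18 cytosolic and 15 mitochondrial) reached the mean of 1 RPKM needed for the test. RPKM is a read number divided by gene length and by library depth, so levels of different genes can be set side by side. The list holds no aspartyl enzyme of either compartment.

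LM2 is a lung metastatic clonal line derived from MDA-MB-231, a mesenchymal human breast cancer line. Both groups are the same line, harvested 48 h after plating in DMEM with serum. hnRNPM binds RNA and takes part in alternative splicing, and the series concerns its part in breast cancer metastasis. The labels call the silencing agent both an siRNA and an shRNA, and they do not state whether replicates are separate cultures. Thus the p-values describe the spread between these libraries, which may be technical.

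A synthetase joins an amino acid to its tRNA, the step that fixes the meaning of the genetic code. Cytosolic and mitochondrial translation use separate enzymes for most amino acids, all of them encoded in the nucleus. GARS1 (glycine) and KARS1 (lysine) each serve both compartments from a single gene. Mitochondria make glutaminyl-tRNA indirectly: EARS2 charges the tRNA with glutamate, and the amidotransferase of QRSL1, GATB and GATC converts it. Several cytosolic enzymes sit together in the multisynthetase complex on the scaffolds AIMP1, AIMP2 and EEF1E1. Many cytosolic synthetase genes are known targets of ATF4, the transcription factor of the integrated stress response, which amino acid shortage switches on.

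The targeted gene HNRNPM had 88.6 and 102 RPKM in the controls and 11.5 and 13.0 RPKM after knockdown (log2 fold change −2.91 ± 0.17, SE). Of 6 markers of the line, VIM (562 to 760 RPKM), CD44 (51.1 to 71.9 RPKM) and FN1 (47.4 to 64.4 RPKM) did not pass the test described below. The other 3 rose after knockdown: SPARC from 70.1 and 80.3 to 183 and 201 RPKM, and the keratin genes KRT8 from 3.86 and 4.55 to 7.50 and 8.01 and KRT18 from 5.49 and 6.54 to 10.5 and 11.8 RPKM. Of 5 markers taken as low or absent in it, ESR1 was at most 0.0322 RPKM and PGR was listed at 0, but ERBB2 lay between 7.19 and 9.13 RPKM and EPCAM between 0.91 and 1.25 RPKM. CDH1, the epithelial cadherin, had too low a mean for the test and was at 0.0774 and 0.0629 against 0.717 and 0.99 RPKM. The part of these marker differences in the results below was not tested. Of 5 immune and endothelial markers in the table, 4 were at most 0.0442 RPKM, and the monocyte marker CD14 was higher after knockdown (1.28 and 1.44 against 5.27 and 7.13 RPKM). The depth estimated from the steps of low values was 22.9 and 26.5 M reads in the control and 16.5 and 18.3 M reads in the knockdown libraries. The steps of both replicates of a group were pooled and fitted with 1 read total, and none was fitted for each replicate. At that total 92.4% of the pooled low values were whole within 0.1 read in each group. The RPKM values may thus still carry differences of depth within a group. In 33 of 33 tested synthetases the second control library was above the first (median ratio 1.15), and in 32 of 33 the second knockdown library was above the first (median ratio 1.09). This shared offset enters every SD and SE below unless median-ratio scaling, which divides each library by its median ratio to the mean library, is named. With it the median log2 fold change over the tested genes of the table was −0.000765, against −0.07 without it.

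The median of the gene means over all libraries was 26.2 RPKM for the cytosolic and 4.55 RPKM for the mitochondrial enzymes in the table. In the control libraries SARS1, which charges serine, was highest at 62.1 and 71.6 RPKM, followed by GARS1 at 52.3 and 60.8 and TARS1, for threonine, at 52.3 and 58.9 RPKM. Their means were 66.9 ± 6.72, 56.6 ± 5.96 and 55.6 ± 4.65 RPKM (SD, n = 2), and GARS1 and TARS1 did not differ beyond their spread. The cytosolic enzymes with the lowest control means were HARS1 (11.1 and 12.8 RPKM) and FARSB (11.1 and 12.7 RPKM), the beta subunit of the phenylalanine enzyme. FARSA, the alpha subunit of the same enzyme, stood at 46.2 ± 3.43 RPKM. Among the mitochondrial enzymes IARS2 (isoleucine) was highest at 24.6 ± 2.76 and YARS2 (tyrosine) next at 13.5 ± 1.11 RPKM, and the other 13 tested lay between 2.41 (CARS2) and 6.70 RPKM (LARS2). After knockdown FARSA was the highest at 51.8 ± 6.54 RPKM, and SARS1 stood at rank 4. TARS1 moved from rank 3 to rank 8 of the 33, LARS1 from 15 to 20 and FARS2 from 27 to 32.

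**Figure D1:**
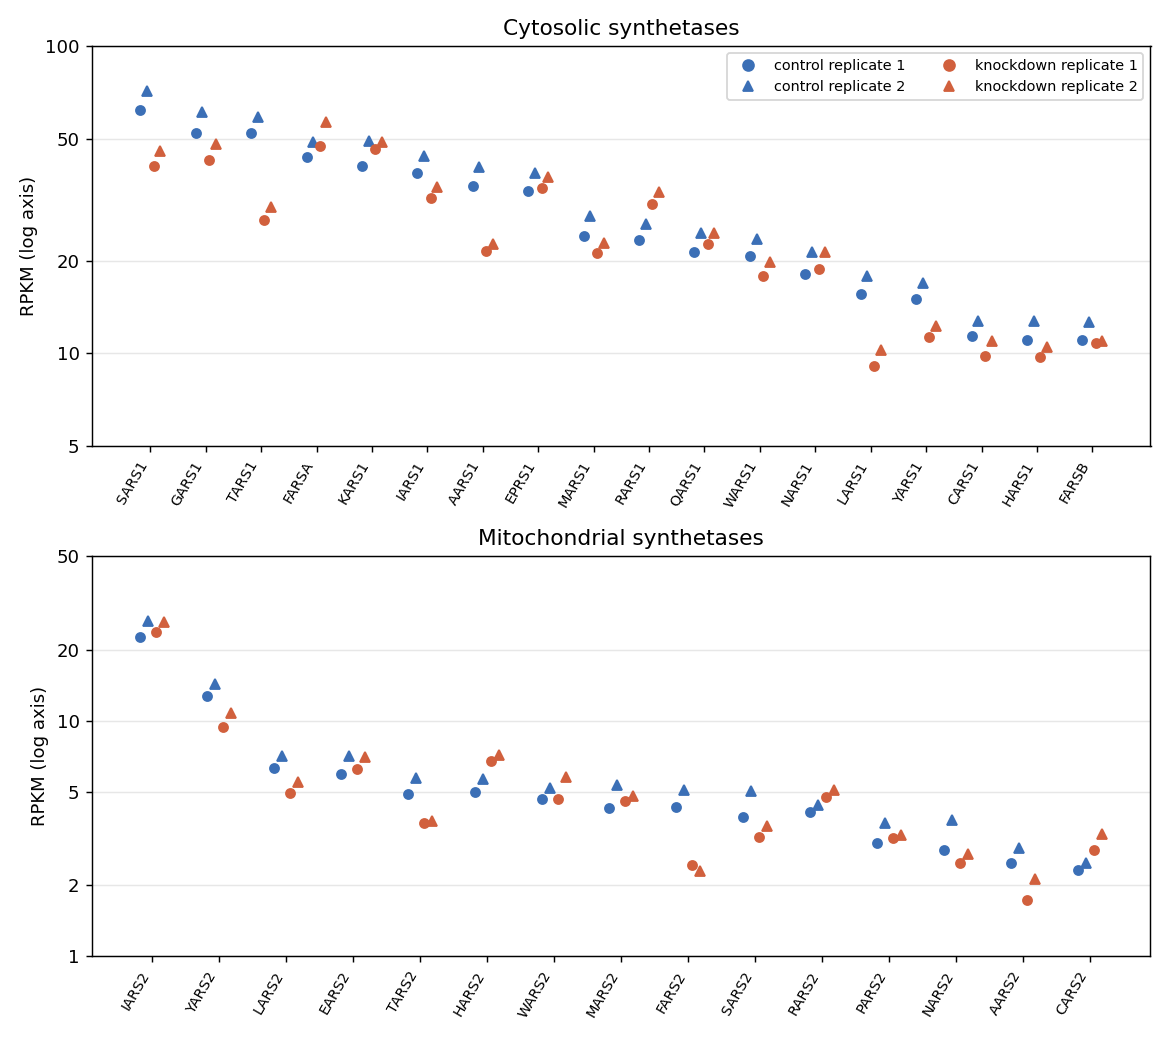
RPKM of the tested synthetases in each library on log axes, cytosolic enzymes above and mitochondrial enzymes below, ordered by control mean. Circles are replicate 1 and triangles replicate 2 of the control (blue) and knockdown (orange) libraries. The orange points lie well below the blue ones for TARS1, AARS1, LARS1 and FARS2, and above them for RARS1 and HARS2.

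VARS1 and VARS2, the valine enzymes, enter no test and no pair. VARS2 does enter the median level of 4.55 RPKM and the sums of the 16 mitochondrial enzymes. Both genes lie in the major histocompatibility region of chromosome 6. VARS1 is not analysed here. VARS2 was listed at 0 in 3 libraries and at 0.00565 RPKM in the other. Of 95 protein-coding neighbours from 25 genes before VARS2 to 25 after VARS1, 40 were in the table, and all 40 stayed below 1 RPKM in every library (highest 0.0893 RPKM, MRPS18B). They include widely expressed genes such as BAG6, LSM2 and CSNK2B. The low value of VARS2 is therefore given only as listed.

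Of the 18 cytosolic synthetases tested, 5 fell after knockdown, 0 rose and 13 did not pass (limma on log2(RPKM + 0.5), Benjamini-Hochberg adjusted p under 0.05 over all 13627 genes tested). In the same fit 21.8% of all tested genes were called lower and 14.7% higher, 36.4% in all. The median log2 fold change of the cytosolic enzymes was −0.22, against −0.07 over all tested genes. Of the 15 mitochondrial enzymes tested, 2 fell, 0 rose and 13 did not pass, the median being −0.04 (0.03 with the scaling). Without adjustment, RARS1 and HARS2 were the members above the controls at p under 0.05. The share called lower was thus 27.8% for the cytosolic list and 13.3% for the mitochondrial list, either side of the share for all genes. With 1 library left out the cytosolic calls numbered 4 (control replicate 1), 1 (control replicate 2), 1 (knockdown replicate 1) and 2 (knockdown replicate 2), and the mitochondrial calls 1 in each case. Fewer of all tested genes were called lower in each of these fits as well. In bulk RNA, fewer cells of a type and less RNA per cell cannot be told apart.

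TARS1 had the lowest log2 fold change of any member, going from 52.3 and 58.9 RPKM in the control libraries to 27.1 and 30.0 RPKM after knockdown. Both knockdown libraries lay far below both controls. The means were 55.6 ± 4.65 and 28.6 ± 2.04 RPKM (SD, n = 2), 1.95-fold lower (log2 difference −0.95 ± 0.17, SE; limma adjusted p = 5.48e-07). TARS2, the mitochondrial threonine enzyme, fell as well, from 4.91 and 5.73 to 3.67 and 3.77 RPKM. Its groups did not overlap either (−0.46 ± 0.18, SE; limma adjusted p = 0.0275). In this fit threonine was the 1 amino acid whose enzymes in both compartments were called lower, but the TARS2 call held in none of the 4 fits without 1 library. With median-ratio scaling both enzymes were also called lower for alanine, leucine, serine and tyrosine.

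AARS1, which charges alanine, was at 35 and 40.4 RPKM in the controls and at 21.5 and 22.7 RPKM after knockdown. Its level fell 1.71-fold (log2 fold change −0.75 ± 0.17, SE; limma adjusted p = 0.000109). LARS1, the leucine enzyme, which is also known as a leucine sensor upstream of mTORC1, was at 15.6 and 17.8 against 9.11 and 10.3 RPKM. It fell 1.73-fold (log2 fold change −0.76 ± 0.18, SE; limma adjusted p = 0.000117). Both knockdown libraries lay below both control libraries for each of these genes. LARS1 was the only enzyme of the multisynthetase complex called lower.

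SARS1 went from 62.1 and 71.6 to 40.8 and 45.5 RPKM, 1.55-fold lower (log2 fold change −0.62 ± 0.17, SE; limma adjusted p = 0.00148). YARS1, the tyrosine enzyme, was at 15.0 and 17.0 RPKM in the controls and at 11.3 and 12.3 RPKM after knockdown. Its groups did not overlap, but its call was close to the threshold (−0.42 ± 0.18, SE; limma adjusted p = 0.0439). SARS1 was thus the most abundant of the called genes, and YARS1 the one with the smallest change.

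FARS2, the single-chain mitochondrial phenylalanine enzyme, changed most among the mitochondrial members. It had 4.29 and 5.07 RPKM in the controls, against 2.45 and 2.31 RPKM after knockdown. Its mean fell 1.96-fold, from 4.68 ± 0.553 to 2.38 ± 0.0962 RPKM (SD, n = 2; log2 fold change −0.84 ± 0.18, SE; limma adjusted p = 2.01e-05). The cytosolic phenylalanine enzyme is built from FARSA and FARSB, and neither subunit passed. FARSA was at 43.7 and 48.6 against 47.2 and 56.4 RPKM (0.16 ± 0.17), and FARSB at 11.1 and 12.7 against 10.8 and 11.0 RPKM (−0.11 ± 0.18).

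The calls of TARS1 and FARS2 held in all 4 fits that left out 1 library (limma adjusted p at most 0.0419 and 0.0309). The other 5 did not. AARS1 missed the threshold when control replicate 2 or either knockdown replicate was left out (adjusted p = 0.0653, then 0.115 and 0.0679), as did SARS1 (0.124, then 0.275 and 0.122). LARS1 did not pass without control replicate 2 or knockdown replicate 1 (0.0597 and 0.128). YARS1 and TARS2 passed in none of the 4 fits (0.101 to 0.512 for YARS1 and 0.0572 to 0.329 for TARS2). With median-ratio scaling all 7 calls held, also without any 1 library, with a highest adjusted p of 0.0469 for TARS2. Without a filter on low values, when all 36525 genes entered the fit, none of the 7 passed.

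**Figure D2:**
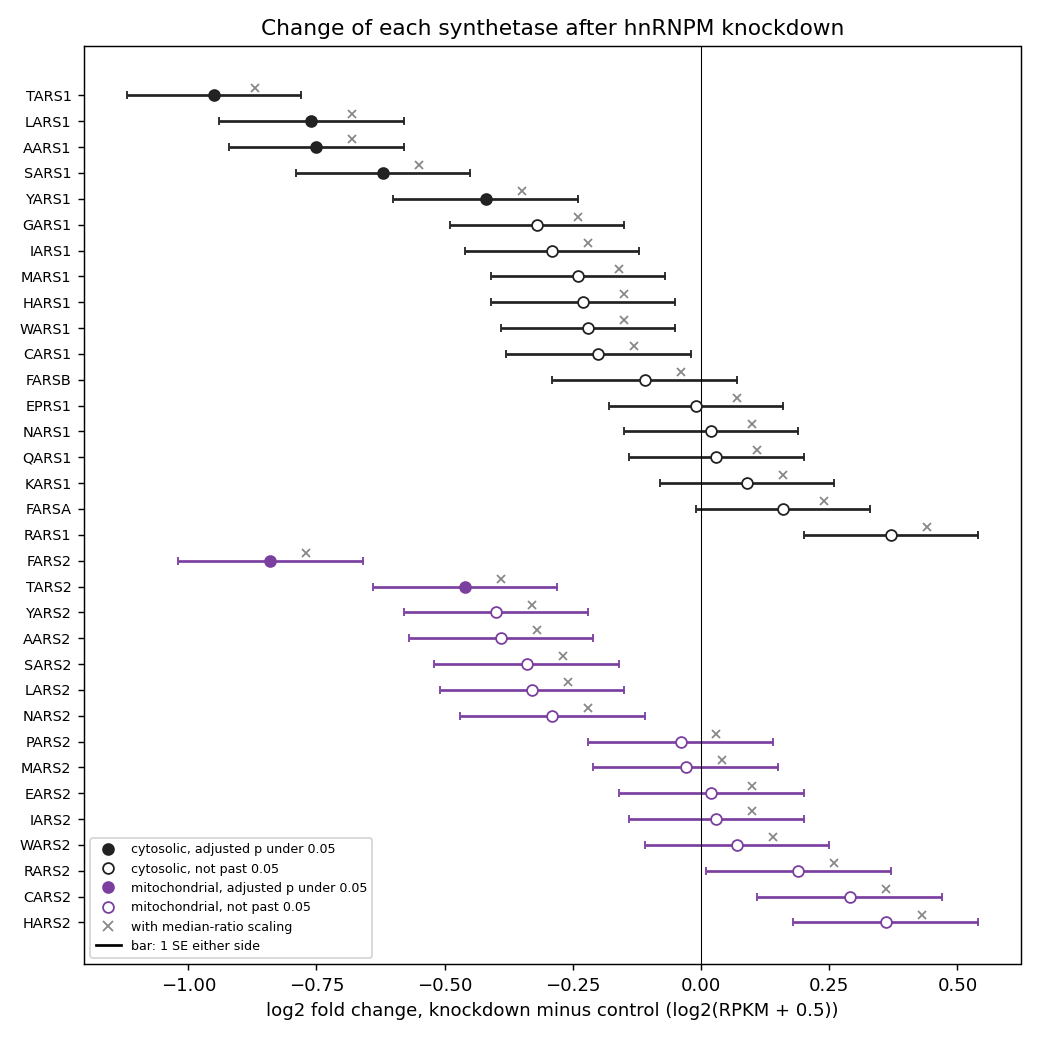
Log2 fold change of each tested synthetase, knockdown minus control on log2(RPKM + 0.5), with bars of 1 SE either side. Filled points passed the threshold, black is cytosolic, purple is mitochondrial, and grey crosses give the value after median-ratio scaling. The 7 filled points run from −0.95 (TARS1) to −0.42 (YARS1), and each cross lies to the right of its point.

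The 26 members that did not pass ran from −0.40 (YARS2) to 0.37 (RARS1). RARS1, the arginine enzyme of the complex, was at 23.4 and 26.3 RPKM in the controls and at 30.6 and 33.6 RPKM after knockdown. Its knockdown libraries were the higher ones, without overlap (log2 fold change 0.37 ± 0.17, SE; limma adjusted p = 0.087). Over all members tested, the knockdown libraries lay below both controls in 19 and above both in 4, and the groups overlapped in 10. Among all tested genes these shares were 38.8% below and 28.0% above.

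Median-ratio scaling brought many more calls, among members as among all genes. With it 11 cytosolic enzymes were lower and 6 higher, and 6 mitochondrial enzymes were lower and 4 higher, where 30.2% of all tested genes were called lower and 30.8% higher, 61.0% in all. The members called higher with it included RARS1 (0.44, limma adjusted p = 0.000832) and HARS2 (0.43, adjusted p = 0.00251), and those called lower GARS1 (−0.24, adjusted p = 0.00159), IARS1 (−0.22, adjusted p = 0.00236), YARS2 (−0.33, adjusted p = 0.00342) and LARS2 (−0.26, adjusted p = 0.00623). These 6 calls also held without any 1 library under that scaling. EPRS1, the fused glutamate and proline enzyme, turned from −0.01 to 0.07 and was then called higher (adjusted p = 0.0478), a call that no fit without 1 library kept under that scaling.

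The enzymes of the multisynthetase complex and the free cytosolic enzymes can be set apart. Of 7 listed complex enzymes tested, LARS1 was the 1 that fell, and their median log2 fold change was −0.01. Among the 11 free enzymes tested 4 fell (AARS1, SARS1, TARS1 and YARS1), with a median of −0.23, and with median-ratio scaling 8 were lower and 2 higher. The shares that fell, 14.3% and 36.4%, lay either side of the 21.8% of all tested genes. The difference between these groups of genes was not tested. In the complex KARS1 was at 40.6 and 48.9 against 46.2 and 48.6 RPKM, and QARS1, for glutamine, at 21.4 and 24.7 against 22.7 and 24.6 RPKM. Knockdown and control values of both overlapped. The scaffolds did not pass either: AIMP1 was at 8.95 and 10.5 against 10.9 and 12.6 RPKM, AIMP2 at 23.1 and 26.1 against 22.9 and 25.1 RPKM, and EEF1E1 at 9.23 and 10.4 against 9.17 and 9.35 RPKM. With median-ratio scaling AIMP1 was called higher (0.34, limma adjusted p = 0.00334), and 4 complex enzymes were higher and 3 lower.

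Synthetases fall into 2 structural classes with unrelated catalytic folds. Of 16 class I enzymes tested, 2 fell (LARS1 and YARS1), and of 16 class II enzymes 5 fell (TARS1, AARS1, SARS1, FARS2 and TARS2). These shares, 12.5% and 31.2%, lay either side of the 21.8% of all tested genes that fell. The medians were −0.11 and −0.30, against −0.07 over all tested genes. With median-ratio scaling the counts were close, 8 lower and 5 higher in class I and 9 lower and 4 higher in class II, and the difference between the classes was not tested. EPRS1 holds a domain of each class and was left out of this count.

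The ratio of the cytosolic to the mitochondrial enzyme for the same amino acid was taken within each library, where the library's depth cancels. It ranged from 1.19 (YARS1 over YARS2) to 15.1 (SARS1 over SARS2) in the control means over 16 pairs. After knockdown the ratio was lower without overlap in 9 pairs, higher without overlap in 4, and overlapping in 3. EPRS1 and FARS2 each enter 2 of the pairs, so 2 of the 4 higher ratios share FARS2 as denominator. The share of such differences among ratios of other genes was not computed, so the counts only describe these pairs. With 2 libraries against 2 an exact two-sided test cannot reach 0.05, so none was run and these are descriptions.

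The ratio of HARS1 to HARS2, the cytosolic and mitochondrial histidine enzymes, had the lowest quotient between groups. It was 2.24 and 2.27 in the controls and 1.44 and 1.48 after knockdown, so that the group means differed by a factor of 0.648. HARS1 was at 11.1 and 12.8 against 9.71 and 10.5 RPKM, while HARS2 was at 4.97 and 5.64 against 6.73 and 7.14 RPKM. The histidine enzymes are transcribed in opposite directions from neighbouring starts and share 437 exon positions in GENCODE 29, 11.7% of the exon length of HARS2. Whether the counting used strand is not stated in the sources, so reads in that stretch cannot be assigned between them. Neither gene passed on its own in the unscaled fit (HARS1 limma adjusted p = 0.321, HARS2 0.0962).

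The cysteine pair moved in the same direction, with CARS1 over CARS2 at 4.87 and 5.12 in the controls and 3.47 and 3.32 after knockdown. LARS1 over LARS2 went from 2.47 and 2.51 to 1.84 and 1.86, and IARS1 over IARS2 from 1.70 and 1.65 to 1.34 and 1.33. For threonine, where both enzymes were called lower, the ratio was still lower (10.7 and 10.3 against 7.39 and 7.95). The phenylalanine enzymes went the other way. FARSA over FARS2 was 10.2 and 9.59 in the controls and 19.3 and 24.4 after knockdown, and FARSB over FARS2 was 2.58 and 2.50 against 4.40 and 4.78. The asparagine pair NARS1 over NARS2 (6.38 and 5.63 against 7.51 and 7.82) and the arginine pair RARS1 over RARS2 (5.73 and 5.96 against 6.45 and 6.61) were higher too. The tyrosine pair overlapped between groups, at 1.18 and 1.19 against 1.2 and 1.14, with YARS1 and YARS2 at −0.42 and −0.40 on the log2 scale.

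**Figure D3:**
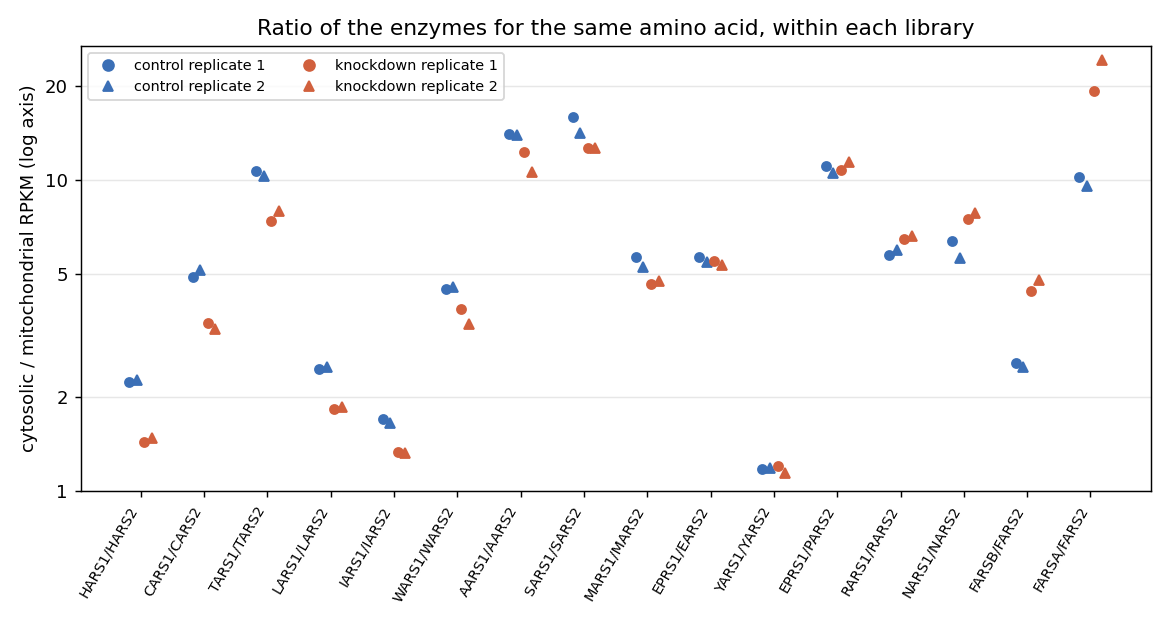
Cytosolic over mitochondrial RPKM for 16 enzyme pairs on a log axis, each point 1 library, circles replicate 1 and triangles replicate 2, blue control and orange knockdown. Pairs are ordered by the quotient of group means, from HARS1/HARS2 (0.648) to FARSA/FARS2 (2.21), and replicate points of a group nearly coincide for most pairs.

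Summed over the genes in the table, the 18 cytosolic enzymes came to 531 and 609 RPKM in the control and to 454 and 501 RPKM in the knockdown libraries. The 16 mitochondrial enzymes summed to 89.5 and 104 against 84.8 and 93.5 RPKM. The cytosolic sum was lower in both knockdown libraries, and the mitochondrial sums of the groups overlapped. Divided by the median-ratio factors, neither pair of sums overlapped: 553 and 551 against 490 and 487 RPKM for the cytosolic, and 93.3 and 94.4 against 91.6 and 90.9 RPKM for the mitochondrial enzymes. Within the cytosolic sum, the 12 enzymes listed as ATF4-induced and present in the table went from 379 and 435 to 287 and 316 RPKM. The 6 cytosolic enzymes outside that list went from 151 and 174 to 167 and 185 RPKM, with overlap. After the same scaling the listed enzymes summed to 395 and 394 against 309 and 307 RPKM, and those outside the list to 158 and 157 against 180 and 180 RPKM, higher after knockdown without overlap.

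All 5 cytosolic enzymes that fell were among the 12 tested ATF4-listed ones (41.7%), whose median log2 fold change was −0.31. Over all tested genes 21.8% fell and 14.7% rose, with a median of −0.07. None of the 6 others passed (0 rose and 0 fell, with 1 at an unadjusted p below 0.05, RARS1), and their median was 0.06. With median-ratio scaling 10 of the 12 were lower and 2 higher, against 1 lower and 4 higher of the 6. That scaling called 30.2% of all tested genes lower and 30.8% higher, 61.0% in all. In the unscaled fits without 1 library, the cytosolic calls came only from the same 5 enzymes, so they add nothing on the list. The median of the 6 others was −0.056 in the unscaled fit without control replicate 1. With the scaling and 1 library left out, the log2 fold changes of RARS1, outside the list, ran from 0.42 to 0.46. Those of HARS1, also outside it, ran from −0.17 to −0.14. No test of the difference between these lists was run.

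A C/EBP-ATF response element, the DNA element bound by ATF4 with its C/EBP partners, has the core letters TGATGCAA. RefSeq promoter stretches (GRCh38.p14, from 250 bases before to 50 bases after each start) were held for 30 of the 35 members. The core was found on either strand in 6 of 16 cytosolic members with an entry (AARS1, CARS1, IARS1, MARS1, NARS1 and TARS1) and in 0 of 14 mitochondrial ones, against 0.866% of all 35116 stretches and 1.08% of 27305 genes. All 6 are in the ATF4 list, and of them AARS1 and TARS1 were called lower. SARS1, also listed and called lower, had an entry without the core. LARS1 and YARS1, the other cytosolic enzymes called lower, had no entry and could not be searched. A longer form, TGATGNAAT, occurred in TARS1, where it overlaps the core, and in GARS1, and in 0.991% of all stretches. The matches are shown to let the promoters be compared, with 10 flanking bases on each side and the core in capitals, which in all but NARS1 appears as its reverse complement TTGCATCA.
TARS1 (chr5:33440957-33440984, + strand): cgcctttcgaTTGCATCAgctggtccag
AARS1 (chr16:70289676-70289703, − strand): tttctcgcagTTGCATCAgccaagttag
IARS1 (chr9:92293693-92293720, − strand): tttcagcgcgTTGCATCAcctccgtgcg
MARS1 (chr12:57488054-57488081, + strand): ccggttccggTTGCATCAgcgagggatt
CARS1 (chr11:3057408-3057435, − strand): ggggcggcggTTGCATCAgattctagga
NARS1 (chr18:57621805-57621832, − strand): ctacgctctcTGATGCAAcgccggaatc
Counted from the RefSeq start (the first base before it is −1), the core begins at −187 in AARS1, −13 in IARS1, −4 in MARS1, −2 in CARS1, 3 in TARS1 and 15 in NARS1. The 6 genes did not change alike: their log2 fold changes ran from −0.95 in TARS1 through −0.29 in IARS1, −0.24 in MARS1 and −0.20 in CARS1 to 0.02 in NARS1. A match is a description of the letters, and binding was not measured.

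Other genes of the integrated stress response moved in both directions, with more lower than higher. Of 35 listed genes, 30 were tested, of which 14 fell (46.7%), 5 rose and 11 did neither (median −0.35). Over all tested genes 21.8% fell and 14.7% rose, with a median of −0.07. With median-ratio scaling 18 of the listed genes were lower and 9 higher, where 30.2% and 30.8% of all tested genes were. PHGDH, the first enzyme of serine synthesis, fell from 12.4 and 13.9 to 3.79 and 4.36 RPKM (−1.58, limma adjusted p = 1.67e-17). PSAT1, the next enzyme of that route, fell from 17.4 and 20.1 to 6.00 and 7.54 RPKM (−1.41, adjusted p = 4.02e-14). EIF2AK3, which codes for the kinase PERK that senses stress of the endoplasmic reticulum, rose from 1.43 and 1.74 to 4.05 and 4.44 RPKM (1.19, adjusted p = 1.26e-09). The transcription factor gene ATF3 rose from 1.06 and 1.37 to 2.70 and 3.20 RPKM (1.01, adjusted p = 9.03e-07). All 4 calls held without any 1 library. Leaving out control replicate 2 gave 9 lower genes, and leaving out knockdown replicate 1 or 2 gave 8 or 9. The 5 higher became 3 when control replicate 1 was left out, and 3 or 2 when knockdown replicate 1 or 2 was. ATF4 itself is not analysed here. DDIT3, a target of ATF4, was at 18.5 and 21.1 against 14.5 and 18.4 RPKM and shares 355 exon positions on the opposite strand with MARS1.

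Of the mitochondrial amidotransferase, none of the 3 subunit genes passed (QRSL1 0.08, GATB −0.10 and GATC 0.19; GATC was called higher with median-ratio scaling, 0.26, limma adjusted p = 0.01). EARS2, which makes its substrate, was at 5.97 and 7.10 against 6.27 and 7.01 RPKM. Among 10 tested mitochondrial translation factors 1 fell and 1 rose, with a median of −0.08. Over all tested genes 21.8% fell and 14.7% rose, with a median of −0.07. MTFMT, which formylates the initiator methionyl-tRNA that MARS2 charges, fell from 2.77 and 2.78 to 1.55 and 1.67 RPKM (−0.63, adjusted p = 0.00288). MTFMT did not pass without knockdown replicate 1 or 2 (adjusted p = 0.112 and 0.0542). MARS2 was at 4.27 and 5.34 against 4.58 and 4.79 RPKM. GFM2, a mitochondrial ribosome recycling factor, rose from 5.03 and 5.95 to 7.27 and 8.10 RPKM (0.45, adjusted p = 0.0299) and passed in none of the 4 fits without 1 library (0.0794 to 0.428).

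The genes that mature and export tRNAs handle the substrates of these enzymes. Of 46 tested, 12 fell and 1 rose (median −0.21). The share that fell, 26.1%, was near the 21.8% of all tested genes. The 12 became 6, 4, 4 and 5 without control replicate 1, control replicate 2, knockdown replicate 1 and knockdown replicate 2. With median-ratio scaling 22 were lower and 10 higher, where 30.2% and 30.8% of all tested genes were. RPP25, a protein subunit of nuclear RNase P, fell from a mean of 11.0 ± 1.32 to 4.30 ± 0.422 RPKM (SD, n = 2), and ALKBH8, a tRNA wobble modification enzyme, from 2.69 and 3.12 to 1.02 and 0.913 RPKM. The gene that rose was HSD17B10, a subunit of the mitochondrial RNase P with a separate dehydrogenase activity, from 21.6 and 23.7 to 70.9 and 75.5 RPKM (1.67, limma adjusted p = 4.74e-20). The other subunits of that enzyme did not rise with it. PRORP fell from 7.38 and 8.45 to 4.44 and 5.15 RPKM (−0.67, limma adjusted p = 0.000753), and TRMT10C did not pass (0.19, limma adjusted p = 0.421).

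**Figure D4:**
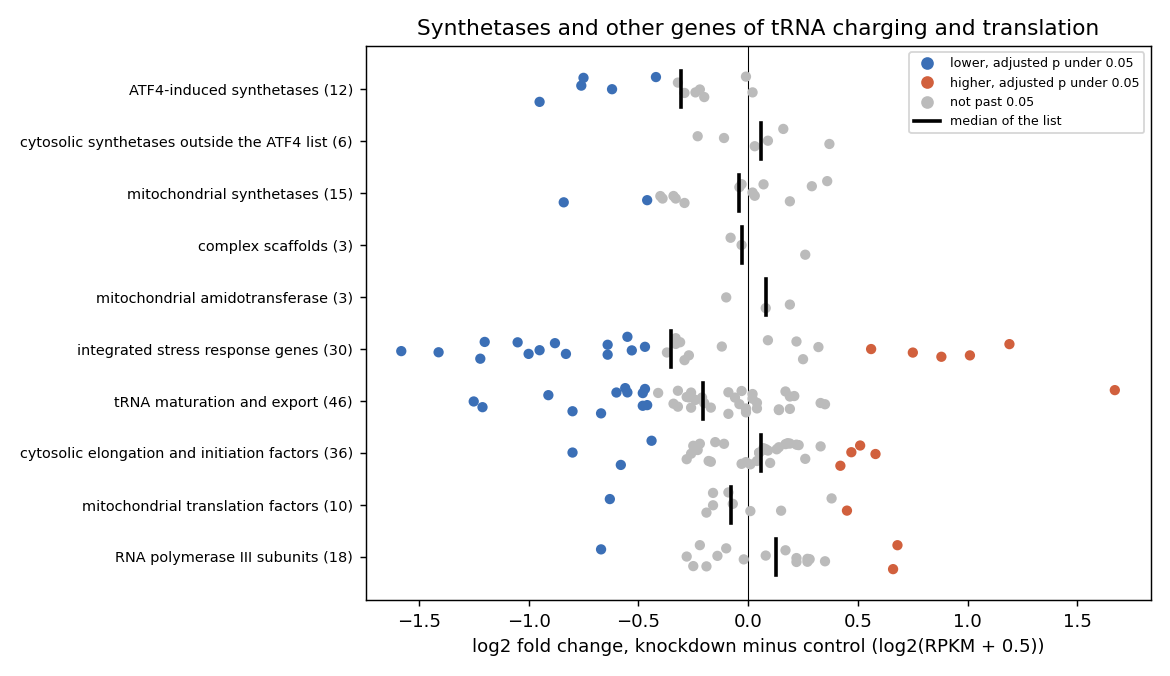
Log2 fold changes of the tested genes of each list, 1 point per gene (blue lower, orange higher, grey not past the threshold), with the median as a black bar and the number tested in brackets, spread vertically so that points can be told apart. The ATF4-listed synthetases have a median of −0.31, the other cytosolic synthetases 0.06 and the integrated stress response genes −0.35.

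For the tested members the estimated reads in the shallowest library ran from 222 (AARS2 and PARS2) to 7016 (IARS1), and the relative counting error is largest for members with few reads. In all, 19 members share exon positions with another gene in GENCODE 29, mostly on the opposite strand and over a small part of their length. The largest shared part of a tested member is in SARS2, of which 46.2% is shared with an unnamed gene on the same strand. Differences of SARS2 (3.90 and 5.04 against 3.21 and 3.58 RPKM) cannot be assigned to it alone.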

How the data were processed

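The authors deposited 1 table of RPKM values for the 4 libraries. The submitters' processing notes name Bowtie 0.12.7 and hg19, whereas the counter, annotation and strand setting were not given in the sources used here. Symbols came from a current table (32172 IDs) and GENCODE 29 (136); 4217 had none. Values were tested as log2(RPKM + 0.5) for 13627 genes with a mean of at least 1 RPKM, with limma 3.58.1 in R 4.3.3: group as the only term, empirical Bayes with trend, Benjamini-Hochberg threshold 0.05. limma estimated no spread of variances beyond the trend, so small p-values rest on a shared variance. The fit was tested on simulated data with independent noise for each gene and library. That simulation held no offset shared by the genes of a library, so it cannot check the p-values under one. Depth came from low values, taken as whole reads on GENCODE 29 exon lengths: 92.4% were whole within 0.1 read, at totals of 41.8 M reads (control) and 29.6 M reads (knockdown). Errors are SD (n = 2) or SE.

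All members were reported; those called were given in full. From the related lists the 2 lowest and 2 highest called genes were named, besides all scaffolds, amidotransferase subunits and HNRNPM. DDIT3, MRPS18B, BAG6, LSM2, CSNK2B and the markers were added after their values were seen or as checks. LARP4, TARS3, PRORP, TRMT10C, EEF1A1 and EEF2 were added in the same way. Members and lists were chosen with earlier results of these data known. Promoter sequences are from RefSeq (GRCh38.p14), another build than the authors'. The motif spellings were chosen after the values were seen. Alternatives were another scaling, pseudocount, filter, prior and minimum fold, a replicate block and each library left out.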

Additional observations from a re-analysis of the deposited data

How the results depend on the processing

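Over all genes, 2000 were called higher and 2964 lower. The higher count moved by over 1.5 times with median-ratio scaling (4192), and both counts without a filter (551 higher and 668 lower), with a filter at 5 RPKM (1047 and 1321) and when a fold of 1.2 was required (940 and 1429). Leaving out 1 library gave 759 to 1158 higher and 1057 to 2007 lower.

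The 5 cytosolic calls became 11 lower and 6 higher with median-ratio scaling, 0 without a filter and 3 with the minimum fold, and 1 to 4 when 1 library was left out. The 2 mitochondrial calls became 6 lower and 4 higher with median-ratio scaling, 0 without a filter, 0 at a mean of at least 5 RPKM (which neither FARS2 nor TARS2 reaches), 1 without a variance trend and 1 with the minimum fold, and 1 in each fit without 1 library. EPRS1 turned from −0.01 to 0.07 with median-ratio scaling. Pseudocounts of 0.1 and 1 changed no member's call. The cause of these shifts was not tested, except that more genes entered without a filter and fewer at 5 RPKM.

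The labels give same-numbered libraries no stated link beyond the number. Their deviations correlated at 0.0307 across genes in 2 pairs, a measure that does not register an offset shared by all genes. With the replicate block 3109 of all tested genes were higher and 4318 lower. Then 11 cytosolic enzymes were lower and 1 higher, and 6 mitochondrial enzymes were lower and 2 higher. The replicate block with median-ratio scaling gave 3856 higher and 3738 lower genes, 10 lower and 3 higher cytosolic, and 6 lower and 3 higher mitochondrial enzymes. The fits with median-ratio scaling that also left out 1 library, and the scaled sums, were chosen after seeing the data. The 9 pairs with a lower cytosolic to mitochondrial ratio became 9 to 11 when 1 library was left out. Leaving out a library cannot undo a separation of the groups, so this count could only stay or grow.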

Other observations

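Of 36 tested cytosolic initiation and elongation factors, 3 fell and 4 rose, the median being 0.06 on the log2 scale (20 higher and 9 lower with median-ratio scaling). EEF1D, the exchange factor subunit that binds several synthetases, was at 7.27 and 8.45 against 3.99 and 4.59 RPKM (−0.80, limma adjusted p = 3.75e-05, and 0.0784 without knockdown replicate 1). EIF2S3, a subunit of the initiation factor that delivers the initiator tRNA, was at 3.65 and 4.66 against 6.22 and 6.59 RPKM (0.58, adjusted p = 0.00436), and passed without control replicate 2 (0.0341) but not without any of the other libraries (0.131 to 0.2). EIF1AX also fell (−0.58, adjusted p = 0.0115, and 0.0246 to 0.195 without 1 library) and EIF3J rose (0.51, adjusted p = 0.0135, and 0.0832 to 0.4).

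Of 18 tested subunits and factors of RNA polymerase III, which transcribes the tRNA genes, 1 fell and 2 rose, with a median of 0.13 (10 higher and 3 lower with median-ratio scaling). GTF3C2 fell (−0.67, limma adjusted p = 0.000798, and 0.0313 to 0.172 without 1 library) and BDP1 rose (0.66, adjusted p = 0.00155, and 0.0341 to 0.0744). POLR3D was at 4.02 and 4.66 against 7.42 and 7.08 RPKM (0.68, limma adjusted p = 0.000596; 0.0567, 0.109 and 0.0665 without control replicate 1, knockdown replicate 1 and knockdown replicate 2). Of 7 tested genes in a mixed list of synthetase-like, proofreading and other genes 3 rose and 0 fell. In this list 4 were at an unadjusted p under 0.05, and 4 were higher and 1 lower with median-ratio scaling. Those that rose were PTRH2, DTD2 and LARP4 (LARP4 0.52, limma adjusted p = 0.0106). The synthetase-like TARS3 did not pass (0.39, limma adjusted p = 0.124). PTRH2, a peptidyl-tRNA hydrolase, rose (0.67, limma adjusted p = 0.000682, and 0.0398 to 0.168 without 1 library). Among them DTD2, which removes wrongly charged amino acids from tRNA, was at 2.71 and 3.18 against 4.71 and 5.44 RPKM (0.69, limma adjusted p = 0.000515; 0.0588 and 0.12 without control replicate 1 and knockdown replicate 2).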
